A study of Mus musculus with 2 samples.

Results

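The genes described here encode inhibitors that growth factor signalling switches on against itself: the Sprouty genes Spry1, Spry2, Spry3 and Spry4, the Spred genes Spred1, Spred2 and Spred3, and the ERK phosphatase genes Dusp4, Dusp5 and Dusp6. They were chosen by name, as all probes whose platform gene symbol is 1 of these 10, out of 16593 genes named on the array. A probe was named for 9 of them, 16 probes in all, and Dusp5 had none and is not analysed here. Gene expression was measured in 2 cultures of mouse embryonic fibroblasts, primary connective tissue cells of the embryo, both labelled male. One culture received no agent and the other received Fgf2, fibroblast growth factor 2, with neither dose nor duration given in the labels. Each culture was read on a single Illumina bead array. The values below therefore carry no replicate, no SD between cultures and no p-value for a difference, and whether a difference exceeds the spread between cultures cannot be said. The design text calls both cultures free of Fgf2, against the titles and agent labels, so each direction rests on those labels.

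Fibroblast growth factors bind receptor tyrosine kinases, and the signal passes through Ras and the kinases Raf and MEK to ERK, which enters the nucleus and changes transcription. Sprouty proteins and the related Spred proteins block the step at Ras or Raf, and Spred1 does so by bringing the Ras inactivator neurofibromin to the membrane. Dual-specificity phosphatases act further down by removing the activating phosphates of the kinases themselves: Dusp6 works on ERK in the cytoplasm, Dusp5 on ERK in the nucleus, and Dusp4 on nuclear ERK and other MAP kinases. Transcripts of several of these inhibitors are widely used as readouts of ERK activity.

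The bead signal of a probe is its brightness on an arbitrary linear scale. Signals ran from 94.3 to 44248 over both arrays, with a median of 149.3 without Fgf2 and 148.5 with it, and the mean background inferred from the detection p-values was 127.9 and 128.4. A probe was called detected at a detection p below 0.01, which corresponded to a signal of at least 171.0 without Fgf2 and 175.9 with it. The fibroblast labels were checked against 12 fibroblast markers, of which 10 had a named probe and 9 were detected on both arrays, the exception being Postn. Their levels were not stable. Col1a1, Col1a2 and Pdgfrb had lower levels with Fgf2, by 5.76-fold, 3.61-fold and 3.48-fold. Lum and Pdgfra had higher levels with Fgf2, by 5.23-fold and 2.56-fold. Col3a1, Thy1, Vim and Dcn differed by less than 2-fold at their brightest probe. The other detected probe of Col3a1 was more than 2-fold lower with Fgf2, with a log2 difference of -1.44. Detected on both arrays were 2 of 10 macrophage, 1 of 8 endothelial, 3 of 7 epithelial, 2 of 6 skeletal muscle and 0 of 8 pluripotent stem cell markers with a named probe. The macrophage-defining genes Ptprc, Adgre1 and Itgam, the endothelial genes Pecam1 and Cdh5, the muscle gene Myod1 and the stem cell gene Pou5f1 were below detection on both arrays. Other genes of these lists were detected: the macrophage genes Cd14 and Lyz2 were 2.99-fold and 1.13-fold higher with Fgf2, the endothelial gene Flt1 was 1.31-fold lower, and the muscle genes Des and Acta1 were 2.14-fold and 1.96-fold lower. Of the epithelial keratins Krt19 and Krt18 were 2.50-fold and 1.28-fold higher, Krt8 was 1.81-fold lower, and Krt14, detected without Fgf2 alone, was at least 5.86-fold lower. The stem cell gene Zfp42 was also detected without Fgf2 alone, near the detection limit, with signals of 180.7 and 154.2. Summed over each list, signals above the mean background were 432.1 without Fgf2 and 587.1 with it for macrophage markers, 538.6 and 446.1 for endothelial, 869.1 and 652.5 for epithelial, 2942 and 1443 for muscle, 148.9 and 84.6 for stem cell, and 49532 and 43549 for fibroblast markers. Xist, which male cells normally do not express, was detected on both arrays by both of its probes, with signals of 476.6 and 269.2 without Fgf2 and 584.1 and 288.9 with it, against the label. Of the Y-linked genes, Eif2s3y was detected on both arrays, with signals of 575.1 without Fgf2 and 496.0 with it, Uty was near the limit of detection on both, with 204.0 and 176.1, and Kdm5d was detected on neither. The part of other cells in the differences below was not tested.

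Of the feedback genes, Spred1 and Dusp6 were clearly above background in both cultures and higher with Fgf2, 2.21-fold and 1.75-fold, Dusp4 was higher by 1.24-fold at its brightest probe, and most of the Sprouty and Spred transcripts lay at background. Without Fgf2, 6 of the 16 probes (37.5%) passed detection, and with Fgf2 7 of them (43.8%), beside 41.1% and 39.9% of all 25697 probes on the array. Sorted by array, 5 probes were detected on both, 1 without Fgf2 alone, 2 with Fgf2 alone and 8 on neither. The 5 probes detected on both belonged to Spry3, Spred1, Dusp4 and Dusp6. Probes of Spry1, Spry2, Spred2 and Spred3 were detected on neither array. A transcript below detection may still be present at a level that the array does not separate from background.

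**Figure D1:**
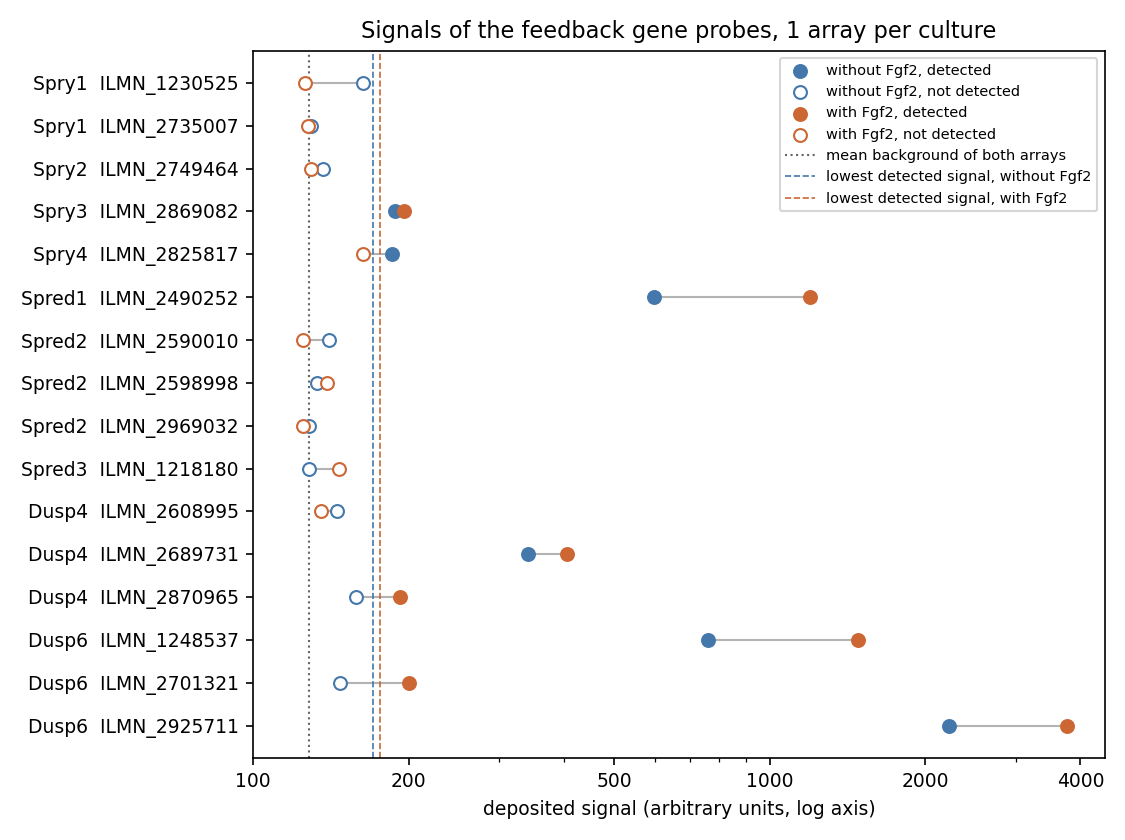
Deposited signal of each of the 16 probes (log axis, arbitrary units) without and with Fgf2, 1 array each, with filled points where the probe was detected and open points where it was not. The dotted line is the mean background and the dashed lines are the lowest detected signals, 171.0 without Fgf2 and 175.9 with it. The signals of Spred1 and of 2 Dusp6 probes lie far right of these lines, with the Fgf2 point to the right of the other.

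Among the Spred genes, Spred1 alone was detected, on both arrays. Its probe, ILMN_2490252, had a signal of 598.4 without Fgf2 and 1200 with it, a ratio of 2.00, and its detection p was 0 on each array. Those signals stood 32.4 and 73.8 background SDs above the mean background. After background correction and normalisation its level was 8.94 without Fgf2 and 10.08 with it on the log2 scale, a difference of 1.14. In bulk RNA, more cells expressing a transcript and more transcript per cell cannot be told apart. Spred1 was the 1 feedback gene at least 2-fold higher, of 4 detected on both arrays by their brightest probe, and 0 were at least 2-fold lower. The same holds for 124 (1.80%) of all 6898 genes that both arrays detected, and 174 (2.52%) were lower by at least 2-fold. Ranked from the highest difference, Spred1 stood at place 85 of these genes. Without background correction the difference was 0.99, just under 2-fold, and in the authors' processed table it was 1.23.

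Spred2, an inhibitor of the same build as Spred1, was read by 3 probes that all stayed near the background. ILMN_2590010 had signals of 140.3 without Fgf2 and 124.9 with it, ILMN_2598998 had 133.2 and 139.0, and ILMN_2969032 had 128.3 and 125.1. Their detection p-values ran from 0.178 to 0.513, and the probes did not share a direction. Spred3, the remaining member of that family, had signals of 128.4 and 146.8, with detection p-values of 0.416 and 0.109. No fold is given for either gene, since both arrays were dark.

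Dusp6, the cytoplasmic ERK phosphatase also known as MKP-3, was higher with Fgf2 by each of its 3 probes, although the sizes differed. The brightest probe, ILMN_2925711, had a signal of 2222 without Fgf2 and 3760 with it, a log2 difference of 0.81 or 1.75-fold. The second, ILMN_1248537, had 758.7 and 1485, a difference of 1.10 or 2.14-fold. Their detection p was 0 on each array, and they gave a mean log2 difference of 0.95 ± 0.21 (SD, n = 2 probes), where the SD describes probes of 1 gene on 1 pair of arrays. Over all 1749 genes with several probes detected on both arrays the pooled SD between probes of a gene was 0.22. The third probe, ILMN_2701321, was dark without Fgf2, at 147.2 with a detection p of 0.0990, and lit with it, at 200.8 with a detection p of 0, which gives a bound of at least 1.5-fold higher. All such bounds are taken against the lowest level among detected probes of the dark array, or the dark probe's own level where that is higher. By its brightest probe Dusp6 stood at place 215 of 6898 genes and outside the 2-fold count, while the second probe alone would place it inside.

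Dusp4, the nuclear MAP kinase phosphatase MKP-2, was read by 3 probes of which a single one was bright on both arrays. ILMN_2689731 had signals of 341.2 without Fgf2 and 406.0 with it, each with a detection p of 0, a log2 difference of 0.32 or 1.24-fold, at place 1395 of 6898 genes. ILMN_2870965 passed detection with Fgf2 alone, with signals of 158.1 and 192.7 and detection p-values of 0.0351 and 0.00376, a bound of at least 1.36-fold higher. ILMN_2608995 was dark on both arrays, with signals of 145.1 and 135.2. The probes of Dusp4 therefore differed in whether they passed detection. Its detected probes were higher with Fgf2 by less than 2-fold or by a bound under 2-fold.

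The Sprouty genes, the best known feedback inhibitors of FGF receptors, were at or near background in both cultures. Spry3, the least studied of the family, was detected on both arrays by ILMN_2869082, with signals of 187.9 without Fgf2 and 196.3 with it and detection p-values of 0.00125 and 0.00251. Its log2 difference was 0.13, or 1.09-fold, at place 2712 of 6898 genes, and smaller than the spread between probes of a gene. Both signals were only 4.13 and 4.68 background SDs above the mean background.

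Spry4, which in mouse is a transcriptional target of FGF signalling, was detected without Fgf2 alone. Its probe, ILMN_2825817, had signals of 186.0 and 163.2, with detection p-values of 0.00251 and 0.0226, and the bound was at least 1.17-fold lower with Fgf2. When a detection p below 0.05 was accepted, both arrays counted as detected and the log2 difference was -0.53. This was the single feedback gene whose detected probe was dimmer with Fgf2, the opposite order to Spred1 and Dusp6.

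Spry1 and Spry2 were below detection in both cultures. For Spry1, ILMN_1230525 had signals of 163.3 without Fgf2 and 125.8 with it, and ILMN_2735007 had 129.4 and 127.7. The first of these came closest to detection among the 8 dark probes, with a detection p of 0.0238 without Fgf2. For Spry2, ILMN_2749464 had 136.4 and 129.3, with detection p-values of 0.226 and 0.397. Over all 8 dark probes the signals ran from 124.9 to 163.3, with 2 probes brighter with Fgf2 and 6 dimmer, and no direction is read from them.

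**Figure D2:**
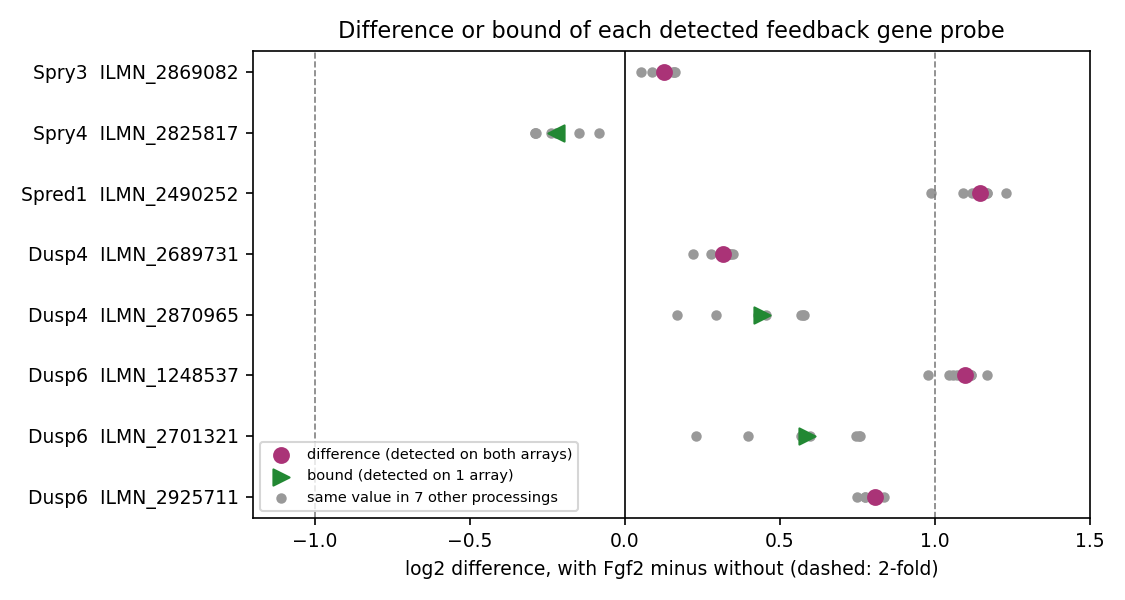
Log2 difference (with Fgf2 minus without) of the 5 feedback probes detected on both arrays (circles) and the bound of the 3 detected on 1 array (triangles), with small grey points for 7 other ways of processing. Spred1 and the Dusp6 probe ILMN_1248537 lie near the dashed 2-fold line at 1, at 1.14 and 1.10, and each of them crosses it in 1 of the 7.

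Across the 4 genes detected on both arrays the median difference was 0.56, beside 0.03 over all 6898 genes, and 4 of 4 were above 0, as were 53.9% of all genes. Spry4, detected without Fgf2 alone, is not among them. At a detection p below 0.05 the count held 5 genes, with Spry4 at -0.53.

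**Figure D3:**
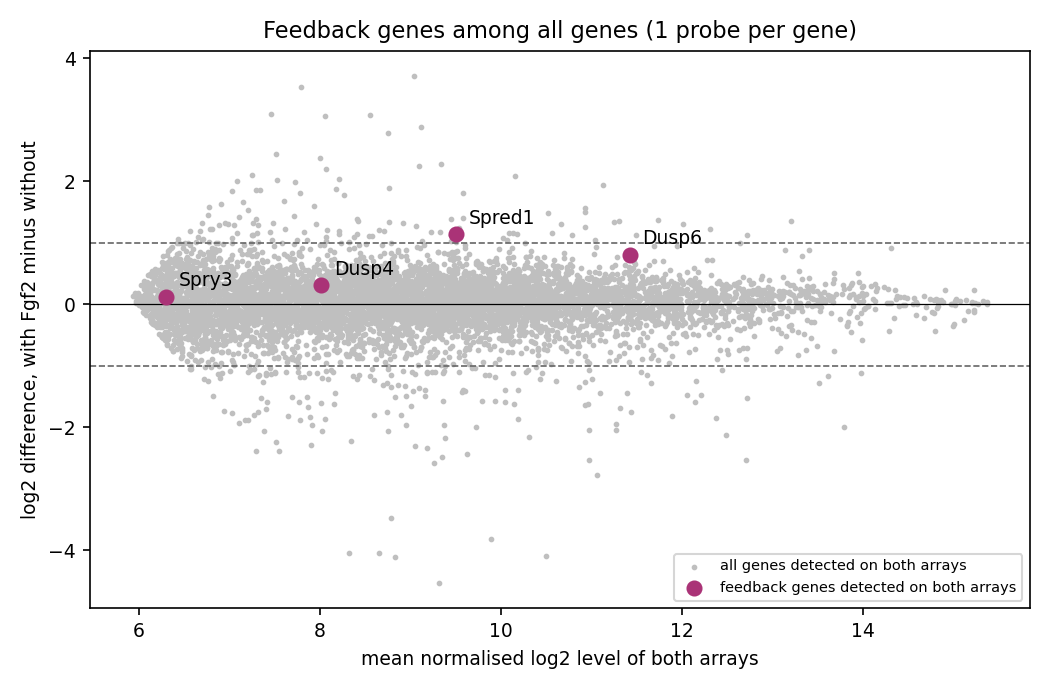
Difference against mean level, both on the log2 scale, for the 6898 genes detected on both arrays, 1 probe per gene, with the 4 detected feedback genes named. Spred1 lies above the dashed 2-fold line, Dusp6 just under it at 0.81, and Dusp4 and Spry3 lie within the main cloud.

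The stretches of DNA before Spred1 and Dusp6 are shown because these genes had the greatest differences among the feedback genes. RefSeq promoter windows of GRCm38.p6 were matched for 7 of the 10 genes. Capitals mark GGAA, read on either strand, the core that ETS family factors bind, several of which are ERK substrates.
Spred1, chr2:117120821-117121070, plus strand: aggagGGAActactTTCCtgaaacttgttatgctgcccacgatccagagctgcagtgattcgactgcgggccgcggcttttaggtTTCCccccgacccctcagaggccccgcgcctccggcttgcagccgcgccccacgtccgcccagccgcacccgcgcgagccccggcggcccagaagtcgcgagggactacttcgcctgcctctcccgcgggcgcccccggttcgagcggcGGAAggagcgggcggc
Dusp6, chr10:99262981-99263230, plus strand: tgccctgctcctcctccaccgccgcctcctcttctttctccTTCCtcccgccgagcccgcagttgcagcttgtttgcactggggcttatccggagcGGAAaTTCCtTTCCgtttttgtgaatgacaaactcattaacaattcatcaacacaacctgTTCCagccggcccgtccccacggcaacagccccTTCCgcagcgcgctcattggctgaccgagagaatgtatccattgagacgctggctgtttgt
Each is the 250 bases upstream of the start of the gene. GGAA occurred 4 times before Spred1 and 6 times before Dusp6, and 93.4% of all 32851 upstream windows of this length held it at least once. The count was 7 before Spred2, 3 before Spry2 and Dusp5, and 1 before Spry1 and Spred3, so the undetected Spred2 had the most. The longer ETS letters CCGGAA, which contain GGAA, were in none of the 7 windows and in 12.0% of all windows. The AP-1 letters TGANTCA, found in 6.75% of all windows on either strand, and the CRE letters TGACGTCA, found in 1.55%, were in none of the 7 either. A match or its absence describes these windows only.

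Of 7 other MAP kinase phosphatases, all with a probe, 3 were detected on both arrays. By the brightest probe of each, these 3 were below 0, as were 45.9% of all genes, with a median of -0.37. None was at least 2-fold apart, beside 1.80% of all genes higher and 2.52% lower. Dusp1, the nuclear phosphatase MKP-1 that growth factors induce rapidly, had signals of 3898 without Fgf2 and 2081 with it and was 1.91-fold lower. Dusp7, a cytoplasmic ERK phosphatase close to Dusp6, was 1.30-fold lower, with signals of 1140 and 912.2. Dusp16, which acts on JNK and p38, differed by -0.33 by its brightest probe, but its other detected probe gave 0.13. Dusp8 was detected without Fgf2 alone, with a bound of at least 1.25-fold lower.

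Among 12 other inhibitors of receptor or Ras signalling, 10 had a probe and 7 were detected on both arrays, 4 above 0 and 3 below, with a median of 0.12, 2 at least 2-fold higher and none lower. Errfi1, the EGF receptor inhibitor also called Mig6, had signals of 4658 and 10262 and was 2.18-fold higher with Fgf2. Lrig1, a membrane protein that promotes receptor degradation, had signals of 585.9 and 1155 and was likewise 2.18-fold higher. Lrig3 differed by -0.59, and Il17rd, the FGF receptor antagonist Sef, by -0.55. The signals of Il17rd were dim, 221.1 without Fgf2 and 188.9 with it, the latter near the detection limit. Nf1, the neurofibromin gene through which Spred1 acts, and Cbl, the ubiquitin ligase that binds Sprouty, were detected on neither array. The share at least 2-fold higher, 2 of 7, stands beside 1.80% of all genes, and 2.52% of all genes were lower. Of all genes 53.9% were above 0. The members were chosen with earlier results of these data known.

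The 7 genes listed as Sprouty and Spred partners were all detected on both arrays, with a median of -0.16. Of them 1 was above 0 and 6 below, as were 53.9% and 45.9% of all genes. None was at least 2-fold apart, beside 1.80% of all genes higher and 2.52% lower. Siah2, a ubiquitin ligase that degrades Sprouty, was 1.64-fold lower with Fgf2. Its signals were dim, 239.2 without Fgf2 and 191.8 with it, the latter near the detection limit. Cav1, the caveolin that binds Sprouty and Spred, was 1.43-fold lower, with signals of 10977 and 7655. Dyrk1a differed by -0.23 and Ppp2ca, a catalytic subunit of protein phosphatase 2A, by 0.17.

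Genes of the cascade from the FGF receptors to ERK showed no difference of 2-fold. Of 23 listed genes 15 had a probe, 8 were detected on both arrays, and the median was -0.02 with 4 above 0 and 4 below. Among all genes detected on both arrays 53.9% were above 0 and 45.9% below, with 1.80% at least 2-fold higher and 2.52% lower. Shc1, an adaptor between receptors and Ras, was 1.36-fold higher and Gab1, a docking protein, 1.26-fold lower. Grb2 differed by -0.24, with signals of 193.1 and 181.9 near the detection limit, and Ptpn11, the phosphatase Shp2, by -0.14. Frs3, an adaptor gene, was detected without Fgf2 alone, with a bound of at least 1.13-fold lower. Fgfr2 was also detected without Fgf2 alone, too close to the detection limit for a bound. Fgfr1 was detected on neither array, with detection p-values of 0.0138 without Fgf2 and 0.0376 with it.

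Genes commonly read as outputs of ERK did not share a direction. Of 22 listed genes 21 had a probe and 14 were detected on both arrays, 6 above 0 and 8 below, with a median of -0.10, 2 at least 2-fold higher and 2 at least 2-fold lower. Over all genes 53.9% were above 0, 1.80% at least 2-fold higher and 2.52% at least 2-fold lower. Ccnd1, the cyclin D1 gene, was 2.56-fold higher and Etv4, an ETS factor of the PEA3 group, 2.14-fold higher. The immediate-early gene Egr2 was 4.66-fold lower and Plaur, the urokinase receptor gene, 2.15-fold lower. Etv1, of the same group as Etv4, was detected with Fgf2 alone, with signals of 163.3 and 350.9 and a bound of at least 4.01-fold higher. Etv5, also of that group, was 1.996-fold higher, with signals of 177.4 and 243.2, the first near the detection limit. Spred1, Dusp6, Etv4, Etv1, Etv5 and Ccnd1 were thus higher with Fgf2, while Dusp1, Egr2 and Plaur were lower. Spry4, near the detection limit, was lower by a bound of at least 1.17-fold. Among 9 housekeeping genes with a probe, 8 were detected on both arrays, with a median of 0.09 and none at least 2-fold apart. The greatest differences there were -0.35 for Actb, 0.28 for Gusb, 0.23 for Ywhaz and 0.22 for Tbp.

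**Figure D4:**
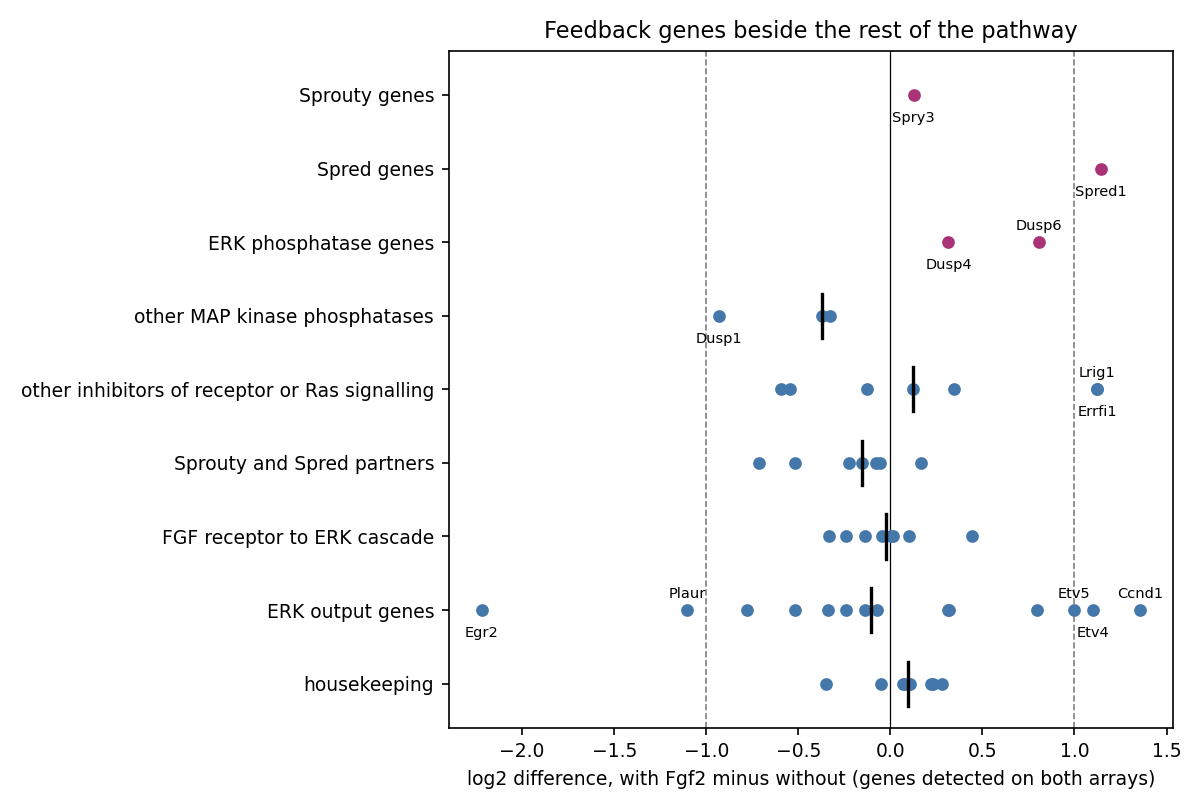
Log2 difference (with Fgf2 minus without) of each gene detected on both arrays, by list, 1 point per gene, with a black bar at the median of lists of at least 3 genes and dashed lines at 2-fold. The feedback genes lie at or above 0, the 3 other MAP kinase phosphatases below it, and the ERK output genes on both sides, from Egr2 at -2.22 to Ccnd1 at 1.36.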

How the data were processed

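Total RNA, 300 ng per culture, was amplified into biotinylated cRNA and hybridised to a bead array, according to the labels. The deposited signals are intensity values. Their medians differ slightly, 149.3 without Fgf2 and 148.5 with it, and whether any scaling preceded deposit cannot be told from them. Each detection p-value stands, per the file headers, beside the deposited signal of its array. The authors also deposited a processed table, judged from its values to be log2 levels, with the same median, 4.30, on both arrays. The submitters' processing notes name BeadStudio 3.2, RMA and lumi without saying what each did. A genome build for the authors' files was not given in the sources used here, and GRCm38.p6 belongs to the RefSeq promoter table alone.

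Background correction used limma 3.58.1 under R 4.3.3, with normexp, a background mean and SD taken from the detection p-values, and an offset of 16. Quantile normalisation of the arrays and log2 followed. Background that is not removed shrinks the differences of dim probes. Of 23978 named probes 23962 were matched to RefSeq by Entrez number. A gene stands for the probe with the highest mean level. With 1 array per group no test was possible, so counts use 2-fold among genes detected on both arrays. The number of arrays limits the precision. Steps were tested on simulated arrays. Later steps used Python 3.11.15, pandas 2.3.3, numpy 2.4.6 and matplotlib 3.10.9. Named are all feedback probes and, from each list, up to 4 genes with the greatest difference, bounds of at least 2-fold, and others picked after their values were seen. The genes and lists were chosen with earlier results of these data known.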

Additional observations from a re-analysis of the deposited data

How the results depend on the processing

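The 5 feedback probes detected on both arrays kept the sign of their difference under all alternatives that gave a value, with ranges of 0.99 to 1.23 for Spred1, 0.98 to 1.17 and 0.75 to 0.84 for Dusp6, 0.22 to 0.35 for Dusp4 and 0.05 to 0.16 for Spry3, and each moved by less than 0.22, the pooled SD between probes of a gene. The alternatives were no background correction, plain subtraction, offsets of 50 and 1, median scaling, cyclic loess, the authors' processed table, and detection p below 0.05 or 0.001, the last of which left Spry3, Spry4 and the dim probes of Dusp4 and Dusp6 without a value. The count of feedback genes at least 2-fold higher went from 1 to 0 without background correction, to 2 at 1.5-fold and to 0 at 3-fold. In the pathway lists 4 genes were at least 2-fold higher and 2 lower. Without background correction these counts were 2 and 1, with an offset of 50 the lower count was 1, at 1.5-fold it was 6, and at 3-fold the counts were 0 and 1. Over all genes, 124 higher and 174 lower became 54 and 108 without background correction, 466 and 500 at 1.5-fold, 31 and 63 at 3-fold, and 236 and 286 without a detection filter, and 81 were higher at a detection p below 0.001. The causes were not tested, beyond the threshold or filter each setting changes by construction. Bounds moved with the background correction and the detection threshold, from 1.12-fold to 1.72-fold for the Dusp4 probe ILMN_2870965 and from 1.17-fold to 2.03-fold for the Dusp6 probe ILMN_2701321 and from 1.06-fold to 1.44-fold for Spry4, where the highest values of Dusp4 and Spry4 are differences because both arrays then counted as detected. No paired analysis was possible because each group has 1 array, and for the same reason no array could be left out. Dim probes, which most Sprouty and Spred probes are, lie where signal over background limits any statement.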

Other observations

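The wider dual-specificity phosphatase family, looked at after its values were seen, had 22 genes with a named probe. Of these, 11 were detected on both arrays, with a median log2 difference of 0.26, beside 0.03 over all genes. They were 6 above 0 and 5 below, as were 53.9% and 45.9% of all genes. None was at least 2-fold apart, beside 1.80% of all genes higher and 2.52% lower. The greatest differences at the ends belonged to Dusp6 at 0.81 and Dusp1 at -0.93. Between them lay Dusp28 at 0.45, Dusp19 at 0.43, Dusp14 at 0.27 and Dusp23 at 0.26 on the higher side, and Dusp3 at -0.40, Dusp7 at -0.37 and Dusp11 at -0.14 on the lower side. A further 2 genes, Dusp8 and Dusp15, were detected without Fgf2 alone and 9 on neither array.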
